A study of Bos taurus with 30 samples.

Results

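The expression of bta-miR-143 and bta-miR-145 was examined in anterior pituitary tissue from 30 bull calves of the Holstein-Friesian breed. The members were taken by name, which gave 2 of the 1030 mature miRNA rows in the table and 2 of the 419 miRNAs that had enough reads to be tested. In the RefSeq annotation of the bovine genome the genes MIR143 and MIR145 lie next to each other with 0 genes between them, inside the long non-coding RNA gene LOC132345768 and between the protein-coding genes IL17B and CSNK1A1. The rows do not name a precursor arm, and each miRNA has a single row.

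The calves were divided into a high plane of nutrition group (HI, n = 15) and a moderate plane of nutrition group (MOD, n = 15). Per the study's methods, assignment was made within blocks of age, weight, sire and source farm. Between 2 and 12 weeks of age HI calves were offered 1.5 kg of milk replacer in 10 L daily with concentrate ad libitum, whereas MOD calves were offered 0.5 kg of milk replacer in 4 L and 0.5 kg of concentrate. The anterior pituitary was collected at 12 weeks of age, and each small RNA library came from a separate calf. Whole tissue was sequenced, so fewer cells of a type and less RNA per cell cannot be told apart in any value given here.

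The 2 miRNAs are cut from a shared primary transcript. They are best known from vascular smooth muscle cells and from pericytes, the contractile cells that wrap small vessels, where the transcription factor SRF and its partner myocardin switch the transcript on and where the miRNAs favour the contractile state. The anterior pituitary is a gland of hormone-secreting epithelial cells threaded by a dense capillary bed, so mural cells of the vessels and fibroblasts of the stroma are a minor part of it. No cell was isolated in this experiment, and the pair is therefore described by name and not as a measure of a cell type.

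Values are counts per 1000000 reads (CPM) scaled between libraries by trimmed mean of M-values (TMM). The 30 libraries held between 6650492 and 11086524 reads assigned to miRNAs. The library of HI calf AP13745 stood apart from the others for both members, and results are given with and without it. An earlier look at these data had also set apart, on the level of another miRNA, a set of 9 calves that carry the largest numbers in their labels (5 of them HI and 4 MOD), and values within these 9 and within the other 21 are given as a description of the libraries, since the labels do not say what the numbers mark.

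miR-143 was among the most abundant miRNAs of the gland, and miR-145 was far less abundant. By mean CPM miR-143 ranked 5 of all miRNAs, behind miR-375 (the miRNA of endocrine cells), miR-148a, miR-26a and miR-411a. miR-145 ranked 130.

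In HI calves the lowest, median and highest expression of miR-143 was 31533, 43942 and 181565 CPM. In MOD calves the corresponding values were 32812, 43574 and 75311 CPM. The groups overlapped, and 8 of the 15 HI values exceeded the MOD median, 2 exceeded the highest MOD calf and 1 lay below the lowest. Of the 30 calves, 26 lay within 25% of the overall median of 43660 CPM.

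Of the remaining 4 calves, 3 were high. AP13745 (HI) reached 181565 CPM, which was 2.25-fold the second highest calf. That calf, AP42931 (HI), had 80613 CPM, and the third, AP47825 (MOD), had 75311 CPM. All 3 were outside the set of 9, in which miR-143 kept between 37955 and 48729 CPM.

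As a share of reads, miR-143 made up between 3.08% (AP27823, HI) and 17.1% (AP13745) of a library. The 95% Wilson interval of the share in AP13745 was 17.06% to 17.11%, which covers counting error only. In that calf it was the most abundant miRNA of all, whereas in the other 29 calves its rank lay between 3 and 9.

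In HI calves the lowest, median and highest expression of miR-145 was 146, 186 and 656 CPM. In MOD calves the corresponding values were 138, 192 and 265 CPM. The groups again overlapped, and 7 of the 15 HI values exceeded the MOD median, 2 exceeded the highest MOD calf and 0 lay below the lowest. The 2 highest calves were AP13745 with 656 CPM and AP93760 (HI) with 345 CPM, and 24 of 30 calves lay within 25% of the overall median of 191 CPM. miR-145 accounted for 0.0617% of reads in AP13745 (95% Wilson interval 0.0601% to 0.0633%).

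**Figure D1:**
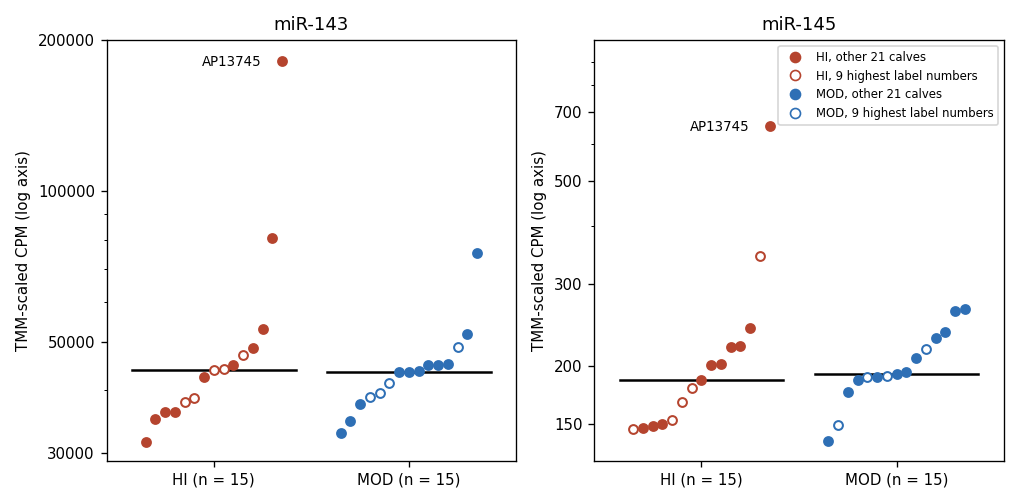
Expression of miR-143 (left) and miR-145 (right) in each calf, in TMM-scaled CPM on log axes, with calves sorted by value within HI (red) and MOD (blue). Open points are the set of 9 calves, horizontal bars are group medians, and AP13745 stands alone at 181565 and 656 CPM above groups whose medians nearly coincide.

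Counting error was a small part of the spread between calves. miR-143 was read between 266948 and 1572780 times per library, for which counting alone gives a coefficient of variation of 0.0797% to 0.194%, against 55.5% between the 30 calves and 24.3% between the 29 without AP13745. miR-145 was read between 1131 and 5681 times, for which counting gives 1.33% to 2.97%, against 44.4% and 22.7% between calves. On the log2 scale the standard deviation of miR-143 was 0.48 over 30 calves and 0.30 over 29, and that of miR-145 was 0.44 and 0.30. The median over all tested miRNAs was 0.25 in both cases. Among the 50 miRNAs of highest mean expression, where the median was 0.17, miR-143 was the most variable over 30 calves and took place 7 over 29.

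No difference between the diets was detected for either member. For miR-143 the mean was 53483 ± 37279 CPM in HI calves (SD, n = 15) and 44452 ± 9896 CPM in MOD calves (SD, n = 15). The log2 fold change (HI over MOD) was 0.12 with a standard error of 0.17 (95% interval -0.22 to 0.46, limma, FDR = 0.873). Without AP13745 the HI mean was 44335 ± 12023 CPM (SD, n = 14) and the log2 fold change was -0.02 with a standard error of 0.11 (95% interval -0.24 to 0.21, limma, FDR = 0.980). The sign of the difference therefore rested on 1 calf.

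For miR-145 the mean was 224 ± 130 CPM in HI calves (SD, n = 15) and 202 ± 36.1 CPM in MOD calves (SD, n = 15). The log2 fold change was 0.04 with a standard error of 0.16 (95% interval -0.28 to 0.36, limma, FDR = 0.959). Without AP13745 the HI mean was 194 ± 53.8 CPM (SD, n = 14) and the log2 fold change was -0.08 with a standard error of 0.11 (95% interval -0.30 to 0.15, limma, FDR = 0.902), so this sign turned with the same calf, and it also turned without AP93760 (-0.01). In the same comparison 15 of 419 miRNAs passed an FDR of 0.1 (3.58% of those tested), of which 8 were higher (1.91%) and 7 lower (1.67%) in HI calves, and 2 of them also passed a fold change of 1.5 (0.477%), with 0 of the 2 members among either. As a fold, the 95% interval over all calves ran from 0.859 to 1.38 for miR-143 and from 0.825 to 1.28 for miR-145. Without AP13745, a calf left out for its high values, it ran from 0.848 to 1.15 for miR-143 and from 0.809 to 1.11 for miR-145.

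Within the other 21 calves the log2 difference between diets was 0.19 for miR-143 (exact permutation test, two-sided p = 0.520) and 0.06 for miR-145 (p = 0.812, exact permutation test). Leaving AP13745 out of these 21 gave -0.02 (exact permutation p = 0.915) and -0.12 (exact permutation p = 0.354). Within the set of 9 the differences were 0.01 (exact permutation p = 0.889) and 0.02 (exact permutation p = 0.968). The change in the diet difference between the 2 sets was -0.18 for miR-143 (limma interaction, FDR = 0.889) and -0.04 for miR-145 (limma interaction, FDR = 0.971), and 0 of 419 miRNAs passed that test (21 at an unadjusted p under 0.05).

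In the 5 HI calves of the set of 9, miR-143 was 37955, 38633, 43942, 44223 and 46981 CPM, and in its 4 MOD calves it was 38853, 39520, 41384 and 48729 CPM. miR-145 was 146, 168, 345, 153 and 179 CPM in the same HI calves and 190, 150, 218 and 189 CPM in the same MOD calves. The spread of miR-143 was narrow here, with a mean of 42247 ± 3911 CPM (SD, n = 9). The other 21 calves had 51848 ± 32199 CPM (SD, n = 21), or 45362 ± 12707 CPM if AP13745 is left out (SD, n = 20). For miR-145 the set of 9 had 193 ± 61.4 CPM (SD, n = 9) and the other 21 had 221 ± 106 CPM (SD, n = 21), or 200 ± 36.9 CPM if AP13745 is left out (SD, n = 20). The wider spread then passed to the set of 9, where AP93760 had 345 CPM and the rest lay between 146 and 218 CPM.

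With diet in the model the set of 9 differed from the other 21 by a log2 value of -0.17 for miR-143 (standard error 0.18, limma, FDR = 0.530) and -0.16 for miR-145 (standard error 0.17, limma, FDR = 0.526). Without AP13745 these values were -0.06 (limma, FDR = 0.745) and -0.07 (limma, FDR = 0.732). Neither member passed, although 109 of 419 miRNAs did so in this contrast (26%). With the label range as a block miR-145 passed, at a log2 value of -0.39 (limma, FDR = 0.0911). The last 4 digits of the calf labels also fall into 4 ranges, which begin with 19, 29, 37 and 78 and hold 7, 3, 4 and 16 calves. Across these ranges the limma F value was 1.67 for miR-143 and 2.73 for miR-145 (FDR = 0.914 for both), and 1 of 419 miRNAs passed (0.239%). The highest range mean of both members belonged to range 37, which holds AP13745 and AP93760. Without AP13745 F was 1.07 and 0.84 (limma, FDR = 0.841 for both). The mean of range 37 was then 42339 CPM for miR-143, below the 54104 CPM of range 29. For miR-145 it was 230 CPM, still the highest, against 217 CPM in range 29.

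The ratio of the members inside a library does not depend on how libraries are scaled. In reads, miR-143 exceeded miR-145 by 230 ± 42.3-fold (SD, n = 30), which is not a measured ratio of molecules. The lowest, median and highest ratio was 127 (AP93760), 241 and 334 (AP42931) in HI calves and 165, 219 and 287 in MOD calves. AP13745, so far apart in level, had a ratio of 277, which lay inside the range of the other calves. In AP93760, the lowest in ratio, miR-145 was the second highest of all calves while miR-143, at 43942 CPM, was the HI median. That place of miR-143 depends on the scaling, since the TMM factor of this library was 1.21. As a share of reads miR-143 was 5.30% in AP93760, above the HI median share of 4.50%.

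The log2 ratio of miR-145 to miR-143 differed between HI and MOD calves by -0.08 (95% interval -0.29 to 0.13, two-sided permutation test, p = 0.435). Within the other 21 calves the difference was -0.12 (exact permutation p = 0.267) and within the set of 9 it was 0.01 (exact permutation p = 0.968). Between the set of 9 and the other 21 it was 0.003 (permutation p = 0.978).

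miR-143 and miR-145 rose and fell together from calf to calf. On log2 values Pearson's r was 0.82 (permutation p = 9e-05) and Spearman's rho was 0.63 (permutation p = 0.00034) over 30 calves. Without the 2 calves farthest from the median of miR-143, AP13745 and AP42931, r was 0.57 (permutation p = 0.00202), and without AP13745 alone it was 0.57 (permutation p = 0.00125) with rho at 0.59. The adjusted p over the 836 pairs of a member with another tested miRNA was 0.00456, and 0.0589 without AP13745.

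The relation was seen in each diet. In MOD calves r was 0.70 (permutation p = 0.00357, n = 15), and in HI calves it was 0.84 (permutation p = 0.00387, n = 15), which fell to 0.49 without AP13745 (permutation p = 0.0787, n = 14). In the other 21 calves r was 0.90, and 0.72 without AP13745 (permutation p = 0.00026, n = 20). In the set of 9 r was 0.30 (exact permutation p = 0.470, n = 9), where AP93760 lay far above the other 8 in miR-145. Whether r differed between the sets was not tested.

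**Figure D2:**
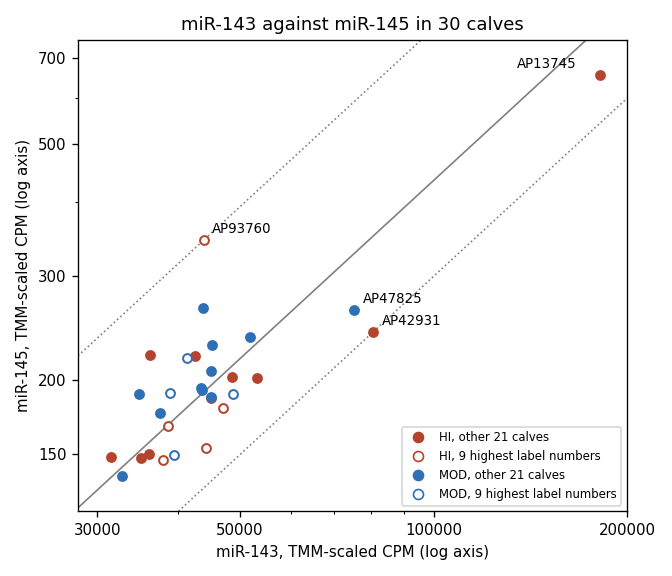
miR-143 (horizontal) against miR-145 (vertical) in 30 calves, both in TMM-scaled CPM on log axes, with colours and open points as for the values by calf. The solid line is the mean ratio of 230 and the dotted lines are the lowest and highest ratios, 127 and 334. AP13745 lies at the far end of both axes, with a ratio of 277, between the mean and the highest ratio.

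The miRNAs whose expression most resembled that of miR-143 over the 30 calves were miR-140 (r = 0.89), miR-133a (0.86), miR-214 (0.84), miR-199a-5p (0.84) and miR-145 itself (0.82). They were chosen for this likeness, so no test is given, and all values share the library and its scaling. miR-140 is known from cartilage and other mesenchymal cells, miR-133a from muscle, and miR-199a and miR-214 from fibroblasts and other mesenchymal cells. Without AP13745 miR-140, miR-199a-5p, miR-133a and miR-214 still took the first 4 places (r between 0.69 and 0.79), and miR-145 took place 8.

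For miR-145 the highest were miR-143 (0.82), miR-214 (0.79), miR-199a-5p (0.77), miR-133a (0.74) and miR-140 (0.69). Without AP13745 the order changed more than for miR-143. miR-324 then led (0.64), followed by miR-199a-5p (0.62) and miR-214 (0.60), while miR-133a dropped to place 20 (0.46) and miR-140 to place 29 (0.40). At the other end miR-216b (-0.52) and miR-216a (-0.48) ran most against miR-143, and miR-16b and miR-369-5p (both -0.59) most against miR-145. The median r over the 418 other tested miRNAs was -0.02 for each member.

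AP13745 was the highest calf in each of miR-140, miR-133a, miR-214 and miR-199a-5p, and AP42931 held place 2 or 3. AP47825, the third in miR-143, held places 3 and 2 in miR-140 and miR-133a but places 9 and 7 in miR-214 and miR-199a-5p. miR-140 in AP13745 was 1479 CPM, against a lowest, median and highest of 419, 506 and 980 CPM in the other 29 calves. miR-133a was 77.3 CPM against 5.15, 9.61 and 26.7 CPM. The highest of the other 29 in miR-140 was again AP42931, and in miR-133a it was AP47825. Within the set of 9 r with miR-143 was 0.52 for miR-140, 0.07 for miR-133a, 0.50 for miR-214 and 0.58 for miR-199a-5p. None of these 4 companions passed an FDR of 0.1 between the diets (limma, lowest FDR = 0.721 for miR-199a-5p).

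**Figure D3:**
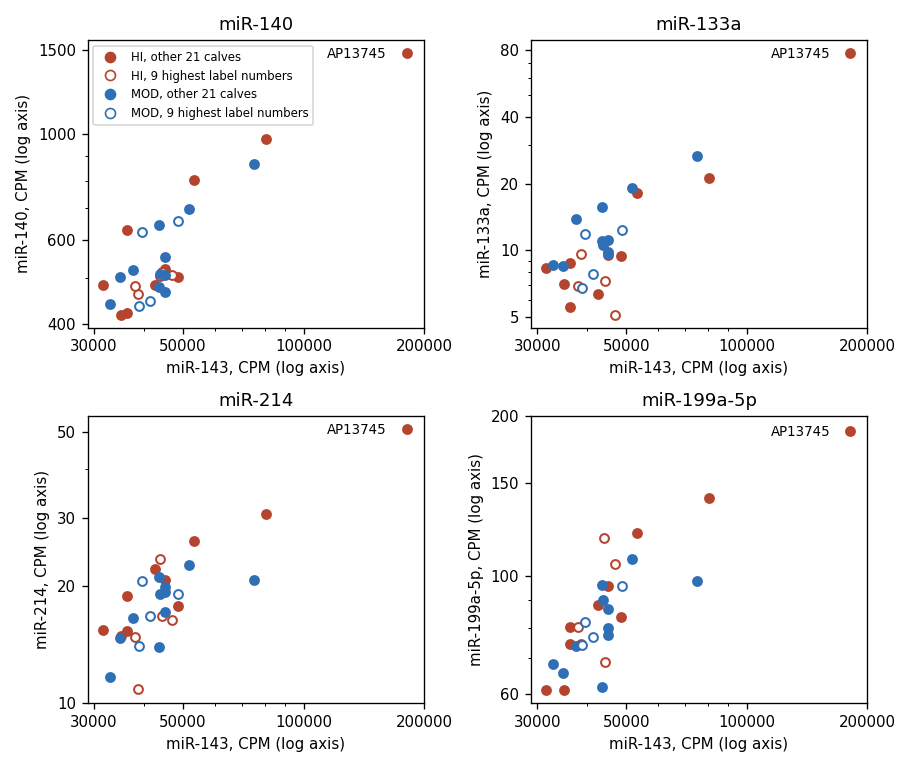
Expression of miR-140, miR-133a, miR-214 and miR-199a-5p (vertical axes) against miR-143 (horizontal axes) in each of 30 calves, in TMM-scaled CPM on log axes, with red for HI, blue for MOD and open points for the set of 9. In each panel AP13745 is the highest calf on both axes, with 1479 CPM of miR-140 and 77.3 CPM of miR-133a.

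Lists of miRNAs known from the cell types that a pituitary sample can hold were then set against the members. Of 40 listed miRNAs 35 were tested, and Pearson's r was computed for each with each member, with permutation p-values adjusted over all 836 pairs. miR-143 passed an FDR of 0.1 with 8 of the 35 and miR-145 with 7, all positive. Over all 418 other miRNAs the numbers were 12 for miR-143 (2.87%) and 21 for miR-145 (5.02%). Without AP13745 miR-143 passed with 7 of the 35 and miR-145 with 5, against 10 (2.39%) and 22 (5.26%) of the 418. Spearman's rho over 30 calves gave 6 of the 35 with miR-143, all positive, and 3 with miR-145, of which 1 was negative, against 15 of the 418 for each member (3.59%). Without AP13745 rho gave 5 and 3 of the 35, against 12 of the 418 for each (2.87%).

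In the fibroblast list, 4 of 5 passed with each member. miR-199a-5p had r = 0.84 with miR-143 (adjusted permutation p = 0.00209, the smallest reached) and 0.77 with miR-145 (adjusted permutation p = 0.00279), and miR-214 had 0.84 and 0.79 (adjusted permutation p = 0.00209 for both). miR-199a-3p and miR-199c also passed, but these rows were identical in 28 of 30 libraries and so count as 1 measurement, which makes 3 of 4 with each member. miR-199b gave 0.37 and 0.34 and did not pass. Without AP13745 the number was again 4 of 5 with each member. By Spearman's rho 4 of 5 passed with miR-143 and 2 of 5 with miR-145, where miR-199a-3p and miR-199c did not pass over 30 calves (adjusted permutation p = 0.104) or without AP13745 (adjusted permutation p = 0.209). Within the set of 9 r for miR-199a-5p was 0.58 with miR-143 and 0.66 with miR-145.

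In the smooth muscle list, 10 of 11 were tested. miR-1, a miRNA of heart and skeletal muscle, was close to absent, at no more than 0.107 CPM in any library where 3 reads correspond to 0.266 to 0.419 CPM. miR-133a and miR-133b passed with miR-143 (r = 0.86 and 0.79, adjusted permutation p = 0.00209 for both) and with miR-145 (0.74 and 0.66, adjusted permutation p = 0.0131 and 0.0394), and miR-26a passed with miR-143 (0.54, adjusted permutation p = 0.0428). miR-21-5p, miR-24-3p, miR-31, miR-10a, miR-146a, miR-221 and miR-222 did not pass with either. Without AP13745 the 3 relations with miR-143 passed and the 2 with miR-145 did not, at r = 0.46 and 0.36. By Spearman's rho over 30 calves miR-133a (0.60) and miR-26a (0.52) passed with miR-143, whereas miR-133b (0.51, adjusted permutation p = 0.104) did not, and miR-133a and miR-133b did not pass with miR-145 (adjusted permutation p = 0.104 and 0.308). By rho without AP13745, miR-133a with miR-143 was the relation of this list that passed (0.55, adjusted permutation p = 0.0825). Within the set of 9 r with miR-143 was 0.07 for miR-133a and 0.001 for miR-133b. miR-133b averaged only 1.77 CPM.

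The endothelial pair, miR-126-3p and miR-126-5p, which is made from an intron of the endothelial gene EGFL7, was abundant and did not pass with either member. r with miR-143 was 0.35 and 0.12, and with miR-145 it was 0.12 and -0.16. Spearman's rho with miR-143 was 0.46 and 0.27 (adjusted permutation p = 0.146 and 0.475). The summed expression of the pair was 8998 to 14949 CPM in HI calves and 10836 to 16172 CPM in MOD calves, and AP13745 held place 16 of 30 with 12698 CPM.

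Of the blood cell lists, miR-451 passed with miR-145 (r = 0.55, adjusted permutation p = 0.0747) and miR-155 with miR-143 (r = 0.60, adjusted permutation p = 0.0171). Without AP13745 these were 0.28 and 0.44 and did not pass. The summed red cell list, which miR-486 dominates, was 10578 to 24489 CPM in HI calves and 15557 to 27422 CPM in MOD calves. The 2 endocrine miRNAs, miR-375 and miR-7, and the 3 tested of 7 neural miRNAs did not pass with either member. The 5 epithelial miRNAs did not pass by Pearson's r over 30 calves. miR-141 passed with miR-145 in the negative direction by Spearman's rho (-0.56, adjusted permutation p = 0.0578) and by Pearson's r without AP13745 (-0.54, adjusted permutation p = 0.0758).

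**Figure D4:**
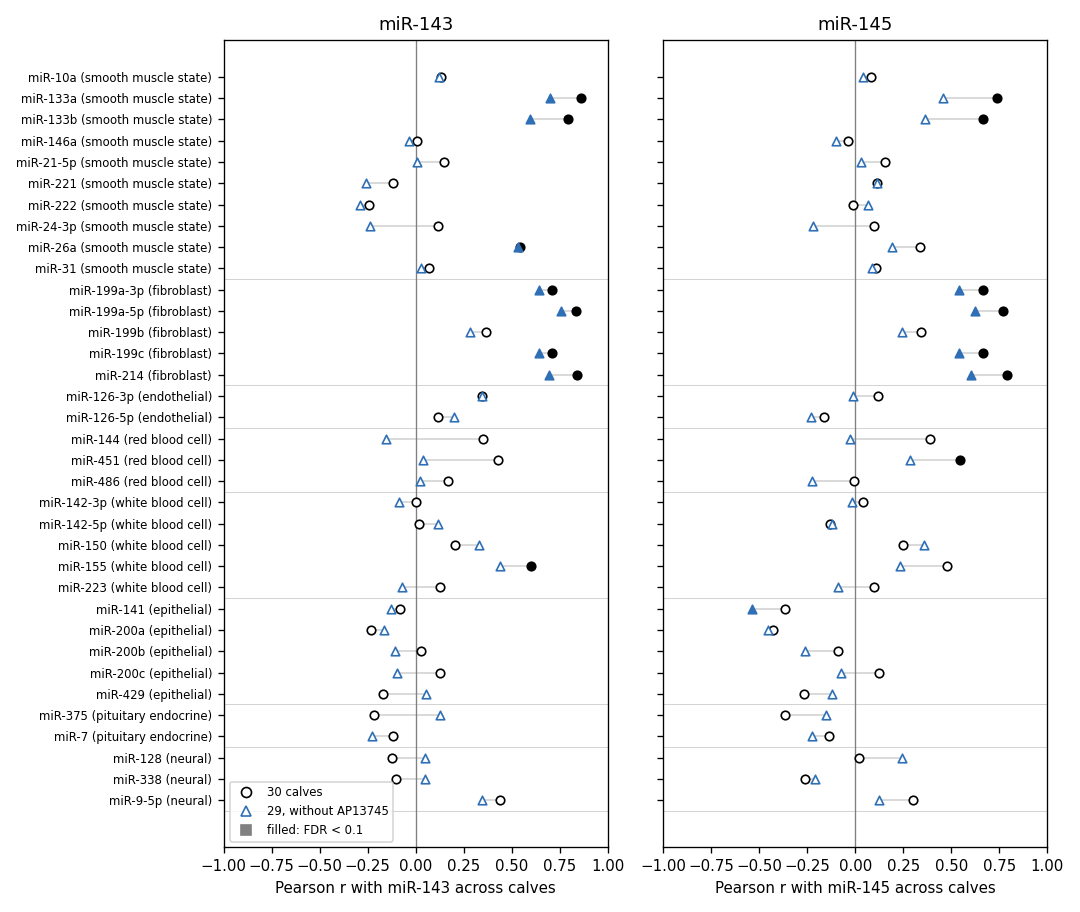
Pearson's r of each tested list miRNA with miR-143 (left) and miR-145 (right) across calves, with circles for 30 calves, triangles for the 29 without AP13745 and filled symbols where the FDR over all pairs was under 0.1. The circles of the miR-199a, miR-199c, miR-214 and miR-133 rows stand far to the right in both panels, and those of the miR-126 rows do not. In the miR-145 panel the triangles of miR-133a and miR-133b lie further left and are not filled.

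Between the diets, 1 of the 35 list miRNAs passed, against 3.58% of all tested. This was miR-26a of the smooth muscle list, which was lower in HI calves by a log2 value of -0.29 (limma, FDR = 0.0613), and which did not pass in the edgeR quasi-likelihood test. miR-26a also did not pass with no filter, with the label range as a block or with miR-486 as a covariate. The same held on leaving out AP37840, AP47825 or AP57867. The median log2 fold change was -0.01 in that list, 0.23 in the fibroblast list and 0.46 in the red cell list, against 0.02 over all 419. The red cell miRNAs went both ways, with log2 fold changes of 0.55 for miR-451 and 0.46 for miR-144 and -0.27 for miR-486, the most abundant of them. In all, 0 of 5 fibroblast and 0 of 3 red cell miRNAs passed in limma (1 and 3 at an unadjusted p under 0.05, with miR-199a-3p and miR-199c counted as 1). With edgeR and with DESeq2, 0 of 5 fibroblast miRNAs and 2 of 3 red cell miRNAs, miR-144 and miR-451, passed. DESeq2 also called the neural miR-338, and upper quartile scaling called miR-338, the epithelial miR-200c and miR-486. The endothelial, white cell, endocrine, epithelial and neural miRNAs did not pass in limma (1 of the 3 neural miRNAs and 0 of the rest at an unadjusted p under 0.05). With miR-199c left out, since it repeats miR-199a-3p, the fibroblast list summed to between 516 and 1268 CPM in HI calves and between 444 and 796 CPM in MOD calves, and its median log2 fold change was 0.20.

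AP13745 was also the highest calf for miRNAs other than miR-143 and miR-145. Of the 419 tested miRNAs, 26 were at their highest in this library (6.21%), a number not given here for the other libraries. In AP13745, 19 miRNAs (4.53%) lay more than 2-fold above the median of the other 29 calves. No other library had more than 16, so this count alone sets the calf little apart. A further 7 miRNAs (1.67%) lay more than 2-fold below that median in AP13745. Relative to that median, miR-133a was 8.05-fold, miR-10b 6.62-fold, miR-133b 6.43-fold, miR-143 4.17-fold, miR-451 3.87-fold, miR-144 3.44-fold, miR-145 3.44-fold, miR-140 2.92-fold, miR-214 2.85-fold and miR-199a-5p 2.34-fold. miR-375 was at its lowest of 30 calves there, at 103334 CPM against 106995 to 197219 CPM in the others.

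The list sums placed AP13745 at 1 of 30 for the fibroblast list (1268 CPM without miR-199c), at 2 for the smooth muscle list, at 6 for the red cell list, at 12 for the white cell list, at 16 for the endothelial list, at 17 for the epithelial list and at 29 for both the endocrine and the neural list. Such sums follow their most abundant miRNAs. miR-26a, itself at place 2, gave 79082 of the 90413 CPM of the smooth muscle list. In the red cell list miR-486 was at place 6, but miR-451 and miR-144 were at place 1. miR-375 was at place 30 and miR-7 at place 11. Of the neural miRNAs, miR-128 and miR-338 were at places 27 and 23, but miR-9-5p was at place 3. The striated muscle miRNA miR-206 was at 0 reads in AP13745, which allows up to 3 reads. Its median over all 30 calves was also 0 CPM (highest 0.112 CPM), so this value does not set the calf apart. In AP13745 miR-208b was at place 3 with 30.5 CPM (1.49-fold the median of the other 29). miR-499 was at place 16 there with 39.0 CPM (0.999-fold). What these levels have to do with the high miR-143 and miR-145 of the calf was not tested.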

How the data were processed

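Small RNA libraries (Illumina TruSeq) were made from anterior pituitary RNA of 30 calves. Per the study's methods and the labels, reads were checked with FastQC, trimmed and size-selected with Cutadapt, cleared of other short RNAs and profiled with miRDeep2 against ARS-UCD1.2 and miRBase. The deposited values are normalised signal, namely CPM that the authors scaled by TMM in edgeR. They are not counts, and a mature sequence shared between miRNAs can be given to several rows.

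The size of 1 read was read off the spacing of small values, library by library, and gave back read numbers (94.75% or more of values were whole within 0.001 reads), and TMM factors recomputed from them differed from the deposited scaling by at most 6.79e-06. The recovery found the totals of 20 of 20 simulated libraries. The main test was limma 3.58.1 with trend on log2(CPM + 1) over the 419 miRNAs that pass filterByExpr in edgeR 4.0.16, with Benjamini-Hochberg FDR under 0.1, so a fold change is on that scale. In data simulated for the HI and MOD comparison, 186 of 200 miRNAs changed 1.5-fold were called in the right direction, and 11 of the others were called. That simulation changed 200 of 419 miRNAs, whereas 15 of 419 passed in the data, and the FDR threshold depends on this share. It therefore does not give the chance of detecting a change in miR-143 or miR-145. As alternatives, edgeR quasi-likelihood and DESeq2 1.42.0 tests were run on the recovered reads. Correlations used 100000 permutations (scipy 1.17.1), adjusted over all pairs of a member with a tested miRNA in place of the list pairs alone, a change made after the data were seen. Intervals on shares cover counting error only.

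The 2 members, the 8 marker lists and the set of 9 calves were chosen with earlier results of these data known. The text names the members, the listed miRNAs, the 5 miRNAs most and the 2 least like each member by r, and the 5 of highest mean expression. miR-10b, miR-206, miR-208b and miR-499 in AP13745, and miR-324, were named after their values were seen. RefSeq gene neighbours come from another build (ARS-UCD2.0) and are given without coordinates. No depth beyond the recovered reads was used, and no sample column was left out.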

Additional observations from a re-analysis of the deposited data

Results flagged for a closer look

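Groups of 4 to 10 calves were searched for a calf far from the rest, in 12 combinations of group and measure, of which 3 stood out. Chance alone marks about 1 in 20, but the searches were not independent, so the count cannot be set against that rate. Both flags of AP93760 draw on its miR-145 value, and AP13745 already stood apart over all calves. In the 4 calves of label range 37, the gap between AP13745 and the next calf in log2 miR-143 was 0.916 of the range. In the 5 HI calves of the set of 9, AP93760 was far above the rest in log2 miR-145, with a gap of 0.764 of the range, and in the log2 ratio of miR-145 to miR-143, with a gap of 0.727. The other measures of AP13745 are given with the results above.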

How the results depend on the processing

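For miR-143 the log2 difference between diets lay between 0.02 and 0.28 over 13 alternatives (FDR 0.581 to 0.976) and between -0.0157 and 0.179 when each calf was left out in turn, negative without AP13745. For miR-145 it lay between -0.06 and 0.17 (FDR 0.757 to 0.991). It was negative at -0.0589 with upper quartile scaling and at -0.0389 with the label range as a block, and leaving out each calf gave -0.0798 to 0.0741, negative without AP13745 (-0.0798) and without AP93760 (-0.0138). The log2 ratio turned from -0.0826 to 0.0112 within the set of 9, and leaving out each calf gave -0.145 to -0.0454. For the set of 9 against the other 21, leaving out each calf gave -0.211 to -0.0624 for miR-143 and -0.267 to -0.0666 for miR-145, and miR-145 passed only with the label range as a block (-0.385, limma, FDR = 0.0911). With each calf left out in turn, r between the members lay between 0.57 (without AP13745) and 0.87 (without AP93760).

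The count of list miRNAs that passed between diets, 1 in the report, was 2 with the edgeR quasi-likelihood test, total counts, DESeq2 size factors or log2 total reads as a covariate, 3 with the set of 9 as a block, 4 with DESeq2 or upper quartile scaling, and 0 with no filter, the label range as a block or miR-486 as a covariate. Leaving out each calf gave 0 to 3, with 0 without AP37840, AP47825 or AP57867. The count over all miRNAs, 15, was 20 with the edgeR quasi-likelihood test, 24 with DESeq2, 29 with upper quartile scaling and 11 with miR-486 as a covariate, the last 2 being the extremes of 13 alternatives, and 14 to 21 with each calf left out. The pairs of a member with a list miRNA that passed, 15 in the report, were 9 by Spearman's rho and 8 by rho without AP13745, both chosen after seeing the data. The cause of these changes was not tested. No analysis by the study's own blocks was possible, because the labels do not give the block, sire or farm of a calf. The main tests of diet therefore treat the calves as unblocked. HI and MOD calves also have no replicate numbers in common. Depth limits miR-133b, miR-1 and miR-206, which were read few times or not at all.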
